A study of Homo sapiens with 9 samples.

Results

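The genes described here are 30 nuclear receptors and 5 proteins that receptors recruit to DNA, a set of 35 gene symbols that were matched by name to the 57773 features of the deposited tables. All 35 were found. Of these, 27 had enough reads to be tested (22 receptors and all 5 coregulators), and 8 receptors did not. RNA came from HepG2, an established line of human hepatoma cells in which much of the hepatocyte programme is still active. The compound tested was tris(2-butoxyethyl) phosphate, TBOEP, which serves as a flame retardant and a plasticiser, and exposure lasted 72 h. Of the 9 cultures 3 received 125 µM TBOEP, 3 received 2.5 µM and 3 were controls without the compound, and all of them carried 0.1% DMSO. Per the labels, each culture was seeded, treated and sequenced on its own, and neither concentration was cytotoxic. All cultures are of 1 cell line, so the spread between libraries is that of repeated cultures and not of donors.

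Nuclear receptors are transcription factors that bind DNA directly, many of them in response to a small lipid-soluble ligand such as a steroid, a thyroid hormone, a retinoid, an oxysterol or a fatty acid. Several of them, among them the PPAR, LXR, RAR and vitamin D receptors, bind as a pair with a retinoid X receptor (RXR). A receptor recruits corepressors or coactivators, which remove or add acetyl groups on histones, and in the liver this family sets the rates of lipid, bile acid, glucose and drug metabolism. Receptor activity depends on ligand as well as on the amount of receptor, and only RNA was measured here.

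Gene reads per library ranged from 2480964 to 11885877, so that 3 reads, taken as the detection floor, equal 0.249 CPM (counts scaled by library depth and TMM factors) in the deepest library and 1.21 CPM in the shallowest. All 15 hepatocyte markers had reads, and their summed level was 48145 to 54046 CPM at 125 µM, 66122 to 78039 CPM at 2.5 µM and 73904 to 96707 CPM in controls; at 125 µM against control 8 of the 15 fell and 1 rose. The endothelial markers summed to 13.6 to 17.4, 3.81 to 5.26 and 3.56 to 6.81 CPM in the same order, with KDR and CLEC4M at 0 in all libraries, and 2 of the 3 that could be tested rose at 125 µM while 1 fell. The fibroblast and stellate markers summed to 26.0 to 34.5, 36.0 to 45.5 and 40.8 to 46.4 CPM, with COL1A2, DCN and LUM at 0. The leukocyte markers summed to 1861 to 2061, 2526 to 2874 and 2430 to 3077 CPM, nearly all of it LYZ, with PTPRC, CD3E and MARCO at 0, and the neural markers did not exceed 0.629 CPM. Over all genes tested, 20.3% rose and 19.9% fell at 125 µM against control. The part of these marker shifts in the receptor results was not tested. In bulk RNA fewer cells of a type and less RNA per cell cannot be told apart.

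Set against controls, more of these genes were lower than were higher at 125 µM TBOEP, while at 2.5 µM 1 of them passed the test. Against control, 4 of the 27 tested members rose (PPARD, PPARG, NR1H3 and ESRRA), 10 fell (NR2F1, NR4A1, NR1D2, NR2C1, RORA, NRIP1, NR2C2, NR2F2, HNF4G and RXRA) and 13 did not pass an adjusted p of 0.05 in edgeR's quasi-likelihood test. These were 14.8% higher and 37.0% lower; over all 12901 genes tested, 20.3% rose and 19.9% fell in that comparison. The median log2 fold change was -0.20 over the 27 members and 0.00 over all genes. At 2.5 µM against control 1 member rose (PPARG) and 0 fell, beside 6.02% of all genes that rose and 5.03% that fell. At an unadjusted p under 0.05 edgeR had 5 members lower, and DESeq2 called 0 lower after adjustment. At 125 µM against 2.5 µM 3 members rose (PPARD, NR1H3 and ESRRA) and 6 fell (NR2F1, RORA, NR1D2, NR4A1, NR2C1 and NR2F2), beside 7.48% and 7.44% of all genes. Both TBOEP groups were compared with the same 3 control libraries, so the 2 comparisons with control are not independent. Without control library 1 the number of genes called at 2.5 µM fell to 213, against 1425 with it, and no member was then called. Without control library 2, NR4A1 passed as lower at 2.5 µM (adjusted p = 0.00859, edgeR).

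**Figure D1:**
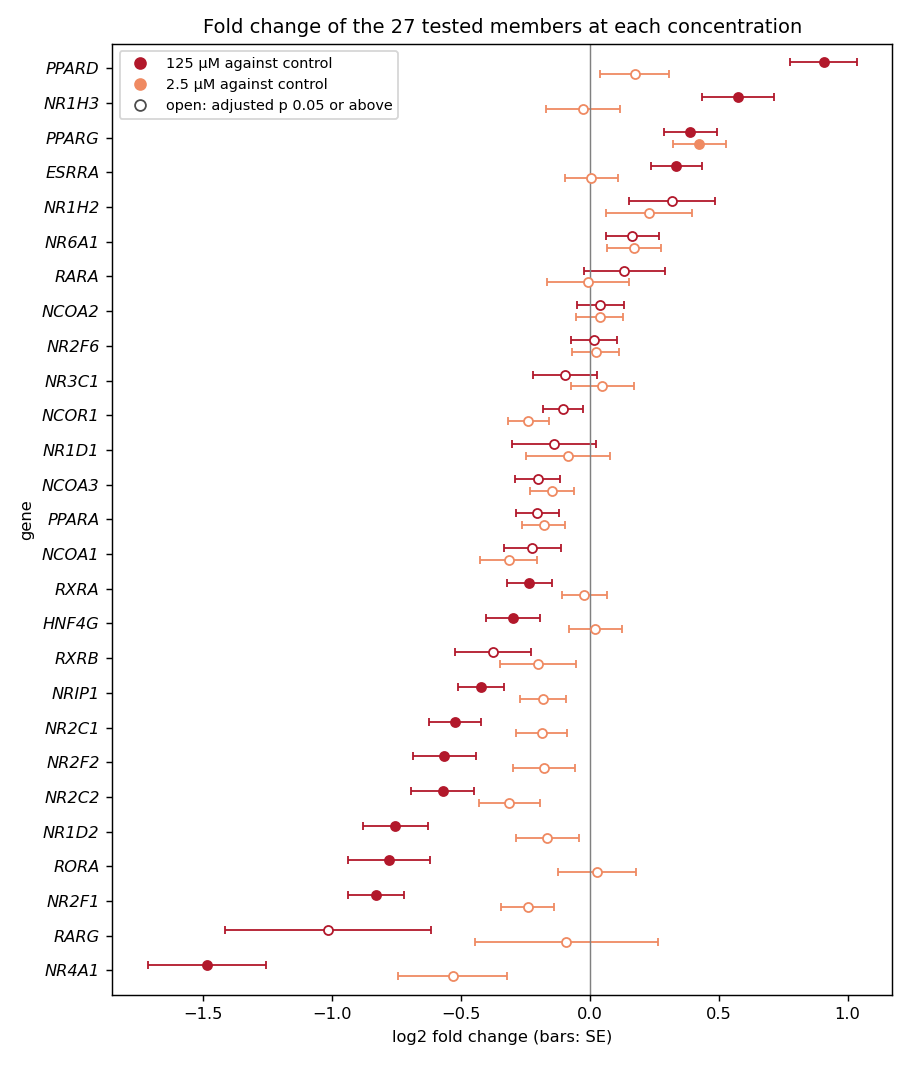
Log2 fold change of the 27 tested members against control (horizontal axis; bars are SE from the edgeR fit to 3 libraries per group), with 125 µM in dark red and 2.5 µM in orange; filled points pass an adjusted p of 0.05. PPARD lies highest at 0.91 and NR4A1 lowest at -1.49 for 125 µM, and PPARG is the single filled point for 2.5 µM.

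Levels were compared between genes as RPKM, which divides exon reads by exon length and depth. In controls the order ran from NR2F6 at 17.8 ± 1.59 RPKM (SD, n = 3), an orphan receptor related to the COUP-TFs, through the coactivator NCOA3 at 15.1 ± 1.02 and PPARG at 12.7 ± 1.5, to RORA at 1.82 ± 0.35 and RARG at 0.15 ± 0.08. PPARG, NRIP1 (12.4 ± 0.73) and PPARA (12.2 ± 0.18) followed, with differences smaller than the SD of PPARG. At 125 µM the same scale gave NR2F6 18.9 ± 0.08, PPARG 17.05 ± 0.88 and ESRRA 15.3 ± 0.68 RPKM, and PPARD stood at 8.12 ± 0.64, against 4.77 ± 0.78 at 2.5 µM and 3.70 ± 0.98 in controls. PPARD was thus below PPARA and PPARG per length in every group.

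**Figure D2:**
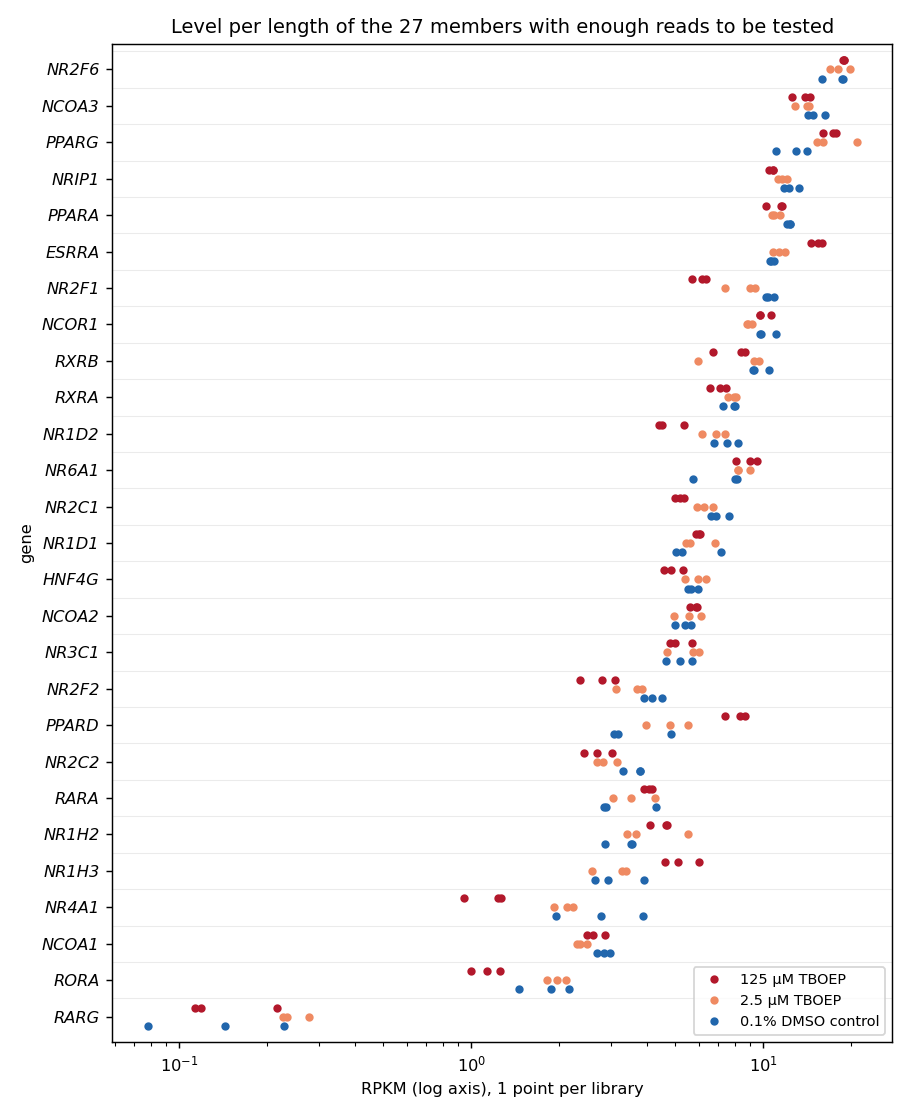
RPKM of the 27 tested members on a log axis, 1 point per library, ordered by the control mean, with 125 µM TBOEP in dark red above 2.5 µM in orange and control in blue. NR2F6 and NCOA3 lie at the top and RARG at the bottom, and the 3 dark red points of PPARD, NR4A1 and NR2F1 stand clear of the blue ones.

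The PPARs are receptors for fatty acids and their derivatives: PPARA drives fatty acid oxidation in liver, PPARG drives fat storage and is best known from adipocytes, and PPARD is expressed in most tissues. PPARD (chromosome 6, 35310335 to 35395968; gene positions are on hg19) had 40.4, 45.4 and 42.2 CPM at 125 µM, against 27.3, 23.1 and 27.9 CPM at 2.5 µM and 20.8, 27.7 and 20.3 CPM in controls. All 3 libraries at 125 µM lay above the other 6, and the 2.5 µM and control libraries overlapped. On the log2 scale its fold change at 125 µM was 0.91 ± 0.13 against control (SE; adjusted p = 0.000104, edgeR) and 0.73 ± 0.13 against 2.5 µM (adjusted p = 0.00162). The second of these calls did not pass with limma on quantile-normalised values (adjusted p = 0.0595).

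PPARG (chromosome 3, 12328867 to 12475855) had 73.3, 79.3 and 80.8 CPM at 125 µM and 73.0, 75.9 and 93.7 CPM at 2.5 µM, against 55.5, 63.3 and 59.5 CPM in controls. Every exposed library lay above every control, and the TBOEP groups overlapped. In log2 terms it changed by 0.39 ± 0.10 at 125 µM (adjusted p = 0.00762, edgeR) and 0.42 ± 0.10 at 2.5 µM (adjusted p = 0.0198). PPARG was thus about as high at 2.5 µM as at 125 µM, with a log2 difference of -0.04 ± 0.10 between them (adjusted p = 0.862, edgeR). The call at 2.5 µM did not pass without 2.5 µM library 3 (adjusted p = 0.0665), without control library 1 (0.111), without control library 3 (0.0536) or with limma (0.0965), and the call at 125 µM did not pass with limma (0.0572). PPARA (chromosome 22) averaged 142 ± 10.5 CPM at 125 µM and 145 ± 7.11 at 2.5 µM, against 164 ± 7.44 in controls (SD, n = 3 each). It did not pass at 125 µM on all gene reads (adjusted p = 0.0658, edgeR) and passed with exon reads alone (0.0235).

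Ratios of reads within a library do not depend on how libraries are scaled. The ratio of PPARD to PPARA reads was 0.273, 0.306 and 0.325 at 125 µM, 0.188, 0.152 and 0.202 at 2.5 µM, and 0.122, 0.178 and 0.121 in controls. The ratio of PPARG to PPARA reads was 0.495, 0.536 and 0.621 at 125 µM and 0.504, 0.5 and 0.680 at 2.5 µM, against 0.326, 0.406 and 0.356 in controls. In both ratios every 125 µM library was above every control, and for PPARD to PPARA the 2.5 µM libraries overlapped the controls. The promoter of PPARD is shown because this gene rose most among the members. The RefSeq window of 300 bases (GRCh38.p14, chr6:35342308-35342607, plus strand; 250 bases before the start site and 50 after) is printed with any motif in capitals, and none of the 4 motifs searched was in it.

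PPARD: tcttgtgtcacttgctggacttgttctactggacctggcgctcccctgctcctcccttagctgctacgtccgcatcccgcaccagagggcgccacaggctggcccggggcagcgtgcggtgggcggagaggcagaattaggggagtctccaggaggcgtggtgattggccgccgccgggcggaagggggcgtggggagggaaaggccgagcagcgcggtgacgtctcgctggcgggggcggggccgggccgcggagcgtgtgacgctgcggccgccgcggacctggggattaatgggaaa

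The 4 motifs were the receptor half-site AGGTCA, the E-box CACGTG bound by CLOCK and ARNTL, the D-box TTATGTAA bound by DBP and its relatives, and the cAMP response element TGACGTCA, each looked for on both strands. No match says only that these letters are not in the window. AGGTCA was in 13.8% of the 35116 RefSeq promoters of the same length and in 12 of 75 promoters of members. The other shares were 7.26% and 6 of 75 for CACGTG, 0.886% and 2 of 75 for TTATGTAA, and 1.85% and 1 of 75 for TGACGTCA. Chromosome 8, where HNF4G and NCOA2 lie, was left out of the 75, and no such step was applied to the 35116.

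The liver X receptors NR1H3 (LXRα) and NR1H2 (LXRβ) sense oxysterols and drive sterol export and fatty acid synthesis. NR1H3 (chromosome 11, 47269851 to 47290396) had 21.5, 24.3 and 26.4 CPM at 125 µM, against 17.5, 13.9 and 15.4 CPM at 2.5 µM and 14.7, 17.8 and 15.6 CPM in controls. The 125 µM libraries were above all others, and the other 2 groups overlapped. NR1H3 changed by 0.58 ± 0.14 on the log2 scale against control (adjusted p = 0.00447, edgeR) and 0.60 ± 0.14 against 2.5 µM (adjusted p = 0.0095). The difference from 2.5 µM did not pass without 125 µM library 2 (adjusted p = 0.0585), without 2.5 µM library 2 (0.0616) or with limma (0.0501). NR1H3 overlaps ACP2 on the other strand over 607 bases, and ACP2, a lysosomal acid phosphatase, also rose (log2 fold change 0.69 ± 0.15, adjusted p = 0.00199). NR1H2 averaged 17.4 ± 1.5 CPM at 125 µM and 17.4 ± 4.49 at 2.5 µM, against 14.1 ± 1.17 in controls, and did not pass (adjusted p = 0.139 at 125 µM, edgeR). The ratio of NR1H3 to NR1H2 reads was 1.36, 1.30 and 1.5 at 125 µM, 1.17, 0.943 and 0.679 at 2.5 µM, and 1.14, 1.17 and 1.11 in controls.

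RXRA and RXRB are the partners that PPARs, LXRs and RARs need on DNA. RXRA had 78.5, 84.5 and 87.7 CPM at 125 µM, against 97.8, 95.5 and 96.1 CPM at 2.5 µM and 104, 87.7 and 102 CPM in controls. Control library 2 and 125 µM library 3 were level, so these groups overlapped. The log2 fold change of RXRA at 125 µM was -0.23 ± 0.09 (adjusted p = 0.0466, edgeR), just inside the threshold. It did not pass in 12 of the alternatives, among them those without 125 µM library 1 (adjusted p = 0.188), 2 (0.106) or 3 (0.0616), without 2.5 µM library 2 (0.0558) or 3 (0.0587) and without control library 1 (0.173) or 3 (0.132). RXRB averaged 33.8 ± 4.83 CPM at 125 µM and 37.3 ± 9.91 at 2.5 µM, against 44.9 ± 2.43 in controls. It lay just outside (adjusted p = 0.0563 at 125 µM, edgeR). RXRB overlaps SLC39A7 on the other strand over 409 bases, and SLC39A7 had 20260 reads in all, against 2625 for RXRB. SLC39A7 fell too at 125 µM (log2 fold change -0.37 ± 0.08, adjusted p = 0.00265, edgeR). RXRG, the member found mainly in muscle and brain, had 0 reads in all 9 libraries, which allows up to 0.249 CPM in the deepest.

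**Figure D3:**
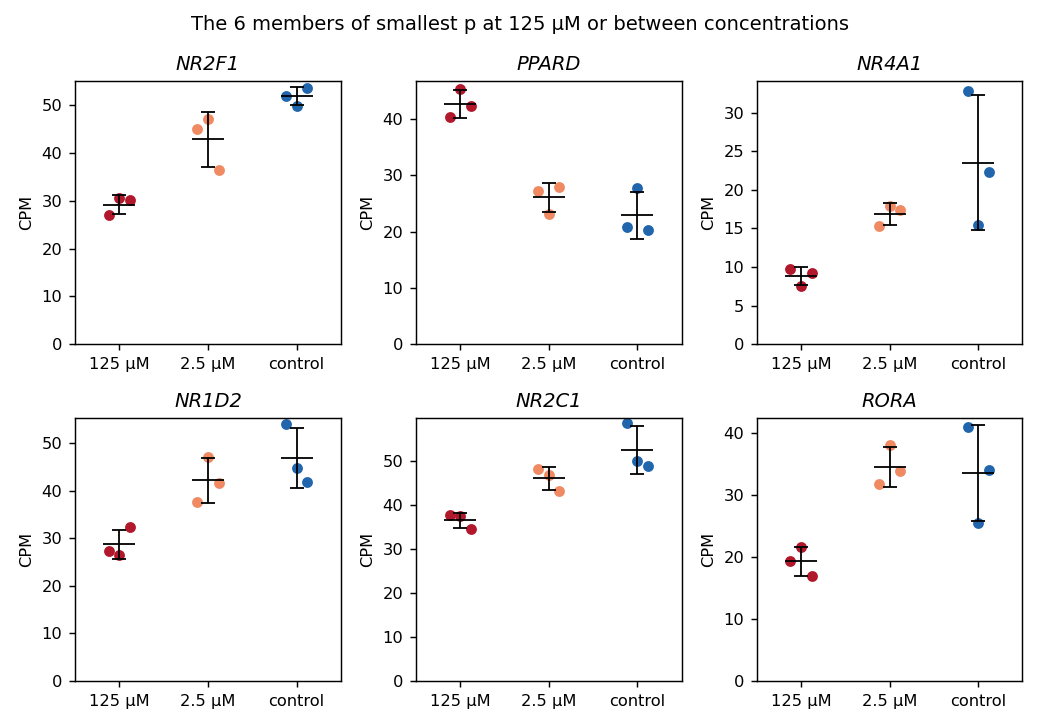
CPM of NR2F1, PPARD, NR4A1, NR1D2, NR2C1 and RORA in each library (points) with the mean and SD of the 3 libraries (bars), in the order 125 µM, 2.5 µM and control; each vertical axis starts at 0. PPARD is high and the other 5 genes are low at 125 µM, where no library overlaps a control.

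NR1D1 and NR1D2 (REV-ERBα and REV-ERBβ) are haem-binding repressors in the circadian clock, and RORA is the activator that competes with them for the same DNA element, for example in the ARNTL gene. NR1D2 (chromosome 3, 23986751 to 24022109) had 27.4, 26.5 and 32.3 CPM at 125 µM, against 37.8, 47.2 and 41.6 CPM at 2.5 µM and 54.0, 44.9 and 41.8 CPM in controls. The 125 µM libraries lay below all others, and the other 2 groups overlapped. Its log2 fold change was -0.75 ± 0.13 against control (adjusted p = 0.000347, edgeR) and -0.59 ± 0.13 against 2.5 µM (adjusted p = 0.00674; 0.0521 without 125 µM library 2). NR1D2 shares 1332 bases with NKIRAS1 on the other strand, and NKIRAS1, an inhibitor of NF-κB signalling, fell too (log2 fold change -1.28 ± 0.22, adjusted p = 0.000487).

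RORA (chromosome 15, 60780483 to 61521518) had 19.4, 21.7 and 16.9 CPM at 125 µM, against 31.7, 38.1 and 33.9 CPM at 2.5 µM and 41.0, 25.5 and 34.1 CPM in controls. No 125 µM library reached the lowest of the other 6. RORA changed by -0.78 ± 0.16 on the log2 scale against control (adjusted p = 0.00143, edgeR) and -0.81 ± 0.16 against 2.5 µM (adjusted p = 0.00361). NR1D1 averaged 16.7 ± 0.49 CPM at 125 µM and 17.2 ± 1.96 at 2.5 µM, against 17.98 ± 4.41 in controls, and did not pass (adjusted p = 0.526 at 125 µM, edgeR). The ratio of RORA to NR1D1 reads was 1.15, 1.27 and 1.05 at 125 µM, 1.63, 2.37 and 2.10 at 2.5 µM, and 1.78, 1.68 and 2.18 in controls, with the 125 µM libraries below all others. The ratio of NR1D2 to NR1D1 reads was 1.63, 1.55 and 2 at 125 µM, 1.94, 2.94 and 2.58 at 2.5 µM, and 2.34, 2.95 and 2.67 in controls. For this ratio every 125 µM library was below every control, while 125 µM library 3 lay above 2.5 µM library 1. NR1D1 overlaps THRA on the other strand over 1081 bases.

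Of 13 tested clock genes outside the receptors, 6 fell and 0 rose at 125 µM against control with edgeR, and 4 fell and 0 rose with DESeq2; at an unadjusted p under 0.05 edgeR had 9 lower and 1 higher. At 2.5 µM 0 of the 13 passed with either tool, and at an unadjusted p under 0.05 edgeR had 4 lower and 1 higher. PER1, a repressor of CLOCK and ARNTL, had 10.1, 10.5 and 10.3 CPM at 125 µM, against 18.6, 16.5 and 19.4 CPM at 2.5 µM and 23.2, 17.2 and 21.0 CPM in controls (log2 fold change against control -1.0 ± 0.15, adjusted p = 0.00012, edgeR). ARNTL, the activator that pairs with CLOCK, averaged 5.40 CPM at 125 µM and 8.05 at 2.5 µM, against 11.7 in controls (-1.20 ± 0.22, adjusted p = 0.000735). DBP (-1.33 ± 0.35, adjusted p = 0.00819) and CLOCK (-0.46 ± 0.14, adjusted p = 0.0157) fell as well, and without control library 1 neither passed (adjusted p = 0.155 for DBP and 0.0543 for CLOCK). Without 125 µM library 2 the adjusted p was 0.0523 for DBP and 0.0789 for CLOCK, and CLOCK did not pass with DESeq2 (0.0555) or with exon reads (0.079). CRY1 and HLF were the other 2. The median log2 fold change of the 13 was -0.40 at 125 µM. With edgeR the 6 that fell were 46.2% of the 13, and over all genes 20.3% rose and 19.9% fell. At 2.5 µM 6.02% of all genes rose and 5.03% fell.

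The second RefSeq start of NR1D2 was picked for display because its window holds motif matches. The window of the first NR1D2 start held none of the 4 motifs, and neither did those of NR2F1, NR4A1 and RORA, which also fell. Whether the motifs have a part in any fall was not tested. The second NR1D2 window (GRCh38.p14, chr3:23945871-23946170, plus strand) has CACGTG with its first letter 155 and 105 bases before the start site. It also has TTACATAA, the D-box read on the other strand, 194 bases before that site. NR2C1, described next, is set beside it as another member that fell and has an E-box, 162 bases before its start (GRCh38.p14, chr12:95073569-95073868, minus strand). NR2F2, ESR2 and RARA also have 1 or more promoters with CACGTG. Capitals mark these motifs; a match is a string of letters and not a measured binding site.

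NR1D2: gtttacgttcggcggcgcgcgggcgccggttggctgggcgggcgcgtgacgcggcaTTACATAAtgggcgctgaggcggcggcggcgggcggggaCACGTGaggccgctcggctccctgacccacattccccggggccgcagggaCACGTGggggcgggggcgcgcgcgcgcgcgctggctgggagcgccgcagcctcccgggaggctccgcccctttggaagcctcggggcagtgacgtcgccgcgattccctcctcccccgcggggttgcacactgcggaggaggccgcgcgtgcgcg

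NR2C1: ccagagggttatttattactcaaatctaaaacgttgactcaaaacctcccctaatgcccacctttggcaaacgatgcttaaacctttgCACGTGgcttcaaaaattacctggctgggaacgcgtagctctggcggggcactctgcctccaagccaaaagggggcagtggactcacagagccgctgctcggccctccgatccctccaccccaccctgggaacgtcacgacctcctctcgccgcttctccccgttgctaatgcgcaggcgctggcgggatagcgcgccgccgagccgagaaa

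NR2C1 and NR2C2 (the testicular receptors TR2 and TR4) and NR2F1, NR2F2 and NR2F6 (the COUP-TF group) are orphan receptors that often repress by occupying the elements of other receptors. NR2C1 (chromosome 12, 95414005 to 95467479) had 37.6, 37.4 and 34.5 CPM at 125 µM, against 48.2, 46.8 and 43.2 CPM at 2.5 µM and 58.6, 50.1 and 48.7 CPM in controls. The 3 groups did not overlap, with 125 µM lowest and control highest. NR2C1 changed by -0.52 ± 0.10 on the log2 scale against control (adjusted p = 0.000882, edgeR) and -0.34 ± 0.10 against 2.5 µM (adjusted p = 0.0357). This second difference did not pass without any one of 125 µM libraries 1 (0.0851), 2 (0.101) and 3 (0.0989) or 2.5 µM libraries 1 (0.106) and 2 (0.105), nor with DESeq2 (0.0854) or limma (0.0654). NR2C2 had 22.0, 19.6 and 19.8 CPM at 125 µM, against 24.9, 25.7 and 21.8 CPM at 2.5 µM and 33.0, 31.3 and 26.2 CPM in controls (log2 fold change at 125 µM -0.57 ± 0.12, adjusted p = 0.00193). For NR2C2 the TBOEP groups overlapped each other and both lay below all controls. NR2C2 shares 11141 bases with MRPS25 on the other strand, a mitochondrial ribosomal protein gene that rose (0.81 ± 0.13, adjusted p = 0.000301). It also shares 841 bases with FGD5-AS1 on the other strand, which did not pass (adjusted p = 0.325 at 125 µM, edgeR).

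NR2F1 (chromosome 5, 92919043 to 92930321) had the smallest p of all members. It had 26.9, 30.5 and 30.1 CPM at 125 µM, against 45.0, 47.0 and 36.4 CPM at 2.5 µM and 51.9, 49.9 and 53.6 CPM in controls, and the 3 groups did not overlap. The log2 fold change was -0.83 ± 0.11 against control (adjusted p = 5.38e-05, edgeR), a fall by 43.7%, and -0.59 ± 0.11 against 2.5 µM (adjusted p = 0.0024). Its antisense neighbour NR2F1-AS1, which shares 2312 bases with it, fell by 0.94 ± 0.24 on the log2 scale (adjusted p = 0.00605).

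NR2F2 (chromosome 15), a regulator of venous and stromal identity, had 20.4, 22.7 and 17.3 CPM at 125 µM, against 27.2, 28.2 and 24.6 CPM at 2.5 µM and 33.3, 27.7 and 30.0 CPM in controls. The 125 µM libraries lay below the other 6. The log2 fold change was -0.56 ± 0.12 against control (adjusted p = 0.00234, edgeR) and -0.39 ± 0.12 against 2.5 µM (adjusted p = 0.0477). The difference from 2.5 µM did not pass in 10 alternatives, among them those without 125 µM library 1 (0.134), 2 (0.0606) or 3 (0.131), without 2.5 µM library 1 (0.100) or 2 (0.16) and without control library 3 (0.0654). NR2F6 stood at 50.8 ± 0.43 CPM at 125 µM, 50.5 ± 3.71 at 2.5 µM and 50.5 ± 2.88 in controls (adjusted p = 0.912 at 125 µM, edgeR). The ratio of NR2F1 to NR2F6 reads was 0.527, 0.599 and 0.599 at 125 µM, 0.838, 0.917 and 0.783 at 2.5 µM, and 1.09, 0.984 and 1.00 in controls, without overlap between the groups. The ratio of NR2C1 to NR2F6 reads was 0.736, 0.735 and 0.686 at 125 µM, 0.897, 0.911 and 0.930 at 2.5 µM, and 1.23, 0.988 and 0.913 in controls, where the 125 µM libraries were below all others and the 2.5 µM and control libraries overlapped.

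ESRRA, the oestrogen-related receptor that works with PGC-1 coactivators on genes of mitochondrial respiration, rose at 125 µM. It had 52.7, 49.0 and 53.6 CPM at 125 µM, against 41.0, 41.6 and 39.6 CPM at 2.5 µM and 45.6, 37.0 and 38.5 CPM in controls. Its 125 µM libraries were above all others. The log2 fold change was 0.34 ± 0.10 against control (adjusted p = 0.0149, edgeR; 0.0507 without control library 2) and 0.33 ± 0.10 against 2.5 µM (adjusted p = 0.0378). The difference from 2.5 µM did not pass without any one of the 3 libraries at 125 µM (0.117, 0.0772 and 0.0967) or at 2.5 µM (0.0856, 0.0943 and 0.0678), nor without control library 3 (0.0511) or with DESeq2 (0.109). ESRRA overlaps TRMT112 on the other strand over 284 bases, and TRMT112, a methyltransferase cofactor, rose at both concentrations (0.54 ± 0.11 at 125 µM, adjusted p = 0.00153).

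HNF4G, a relative of the hepatocyte receptor HNF4A, had 23.8, 25.6 and 26.4 CPM at 125 µM, against 32.4, 29.3 and 33.1 CPM at 2.5 µM and 30.8, 29.7 and 32.3 CPM in controls. The 125 µM libraries were below the other 6, with a log2 fold change of -0.30 ± 0.11 against control (adjusted p = 0.0341, edgeR). It did not pass without 125 µM library 1 (0.143), 2 (0.0908) or 3 (0.051), without control library 1 (0.0828) or 3 (0.0956), with DESeq2 (0.109), with upper-quartile scaling (0.051) or with no filter on low counts (0.106). HNF4A itself averaged 296 CPM at 125 µM, against 275 CPM in controls (adjusted p = 0.378). NR6A1, the germ cell nuclear factor, averaged 66.5 ± 5.11 CPM at 125 µM and 66.5 ± 1.63 at 2.5 µM, against 59.4 ± 7.51 in controls, and did not pass.

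NR4A1 (NUR77) is an orphan receptor that is transcribed within minutes of many stimuli and belongs to the immediate early genes. It had 9.71, 7.55 and 9.18 CPM at 125 µM, against 15.3, 17.9 and 17.4 CPM at 2.5 µM and 32.8, 15.4 and 22.3 CPM in controls. The 125 µM libraries were lowest, and the controls spread over the range of the 2.5 µM libraries and above it. Its log2 fold change of -1.49 ± 0.23 against control (adjusted p = 0.000186, edgeR), a fall by 64.3%, was the largest among the members called. Against 2.5 µM it was -0.95 ± 0.24 (adjusted p = 0.0146; 0.0958 without 125 µM library 2, 0.0638 without 2.5 µM library 2 and 0.0727 with limma). NR4A2 had 14 reads and NR4A3 58 reads over all 9 libraries and were not tested. Of 10 tested immediate early genes outside the receptors, 3 rose (FOSL1, IER2 and KLF6) and 2 fell (IER3 and FOS) at 125 µM. These were 30% and 20%, beside 20.3% and 19.9% of all genes. At 2.5 µM 0 rose and 3 fell (EGR1, IER3 and JUN), beside 6.02% and 5.03% of all genes. Between 125 µM and 2.5 µM 5 were higher and 0 lower at 125 µM, beside 7.48% and 7.44% of all genes, while NR4A1 was lower. The AP-1 subunit FOSL1 had 23.8, 25.1 and 26.4 CPM at 125 µM, against 11.7, 12.8 and 11.7 CPM at 2.5 µM and 14.6, 10.3 and 13.6 CPM in controls (log2 fold change against control 0.94 ± 0.14, adjusted p = 0.000149, edgeR).

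Of the steroid receptors among the members, the glucocorticoid receptor NR3C1 was the one with a clear level. It averaged 49.6 ± 3.33 CPM at 125 µM and 54.7 ± 7.70 at 2.5 µM, against 51.9 ± 7.14 in controls, and did not pass (adjusted p = 0.566 at 125 µM, edgeR). The mineralocorticoid receptor NR3C2 had 18, 17 and 8 reads at 125 µM, at 2.5 µM and in controls, and the oestrogen receptor ESR2 had 0, 6 and 10 reads, 87.5% of them in introns within a gene that overlaps SYNE2. Of 11 tested glucocorticoid response genes, 5 rose and 4 fell at 125 µM (45.5% and 36.4%, beside 20.3% and 19.9% of all genes). The metallothionein MT2A, which zinc and other metals also induce, had 145, 218 and 135 CPM at 125 µM, against 51.8, 51.0 and 72.3 CPM at 2.5 µM and 33.2, 31.5 and 44.1 CPM in controls (log2 fold change against control 2.23 ± 0.19, adjusted p = 2.1e-06). The kinase SGK1 fell (-1.66 ± 0.14, adjusted p = 2.79e-06), the EGF receptor inhibitor ERRFI1 rose (0.87 ± 0.11, adjusted p = 4.63e-05) and PER1, which is on this list as well, fell. The median over the 11 genes was 0.00.

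The retinoic acid receptors were represented by RARA, at 18.3 ± 1.42 CPM at 125 µM and 16.7 ± 1.38 at 2.5 µM, against 16.8 ± 3.93 in controls (adjusted p = 0.527 at 125 µM, edgeR). RARG was close to the floor, at 1.13 ± 0.31, 1.92 ± 0.36 and 1.97 ± 0.89 CPM in the same order, and lay just outside the threshold at 125 µM (adjusted p = 0.0553, edgeR) with overlapping groups. RARB had 23 reads in all. Of 8 tested genes of retinoid response and metabolism, 5 rose at 125 µM, among them TGM2, ALDH1A2, DHRS3 and RDH10, and 2 fell (ALDH1A1 and RARRES2). The shares were 62.5% and 25%, beside 20.3% and 19.9% of all genes. At 2.5 µM 2 rose and 1 fell (25% and 12.5%, beside 6.02% and 5.03% of all genes). The transglutaminase TGM2 had 85.3, 94.3 and 92.5 CPM at 125 µM, against 56.1, 57.5 and 69.1 CPM at 2.5 µM and 41.0, 48.1 and 46.4 CPM in controls, without overlap between the groups. On the log2 scale at 125 µM TGM2 changed by 1.01 ± 0.10 (adjusted p = 7.59e-06, edgeR), and the retinal dehydrogenases ALDH1A2 by 2.74 ± 0.40 (adjusted p = 0.000116) and ALDH1A1 by -0.77 ± 0.09 (adjusted p = 3.06e-05). ALDH1A1 averaged 296 CPM at 125 µM, against 504 CPM in controls, and ALDH1A2 stayed under 6 CPM in all libraries.

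The vitamin D receptor VDR was near the detection limit, with 6 reads over the 3 libraries at 125 µM, 3 at 2.5 µM and 1 in controls. CYP24A1, the hydroxylase that inactivates vitamin D and is a classical VDR target, had 110, 124 and 93.6 CPM at 125 µM, against 19.6, 22.0 and 37.6 CPM at 2.5 µM and 10.7, 13.9 and 10.8 CPM in controls. The 3 groups did not overlap. It changed by 3.24 ± 0.19 on the log2 scale at 125 µM (adjusted p = 2.27e-07, edgeR) and 1.05 ± 0.21 at 2.5 µM (adjusted p = 0.00983; 0.0622 without control library 1 and 0.0871 with limma). Of 6 tested vitamin D genes, 2 rose (CYP24A1 and SLC30A10) and 2 fell (CYP2R1 and CYP3A4) at 125 µM. That was 33.3% each way, beside 20.3% of all genes that rose and 19.9% that fell. CYP2R1, the liver 25-hydroxylase, changed by -1.30 ± 0.21 (adjusted p = 0.000298). The transporter gene SLC30A10 had 29.4, 31.6 and 31.9 CPM at 125 µM and 47.4, 31.4 and 47.7 CPM at 2.5 µM, against 21.3, 23.0 and 26.2 CPM in controls. Its call at 125 µM (adjusted p = 0.0465) did not pass without 125 µM library 1 (0.0685), 2 (0.132) or 3 (0.0891), without control library 1 (0.183) or 2 (0.0774), with DESeq2 size factors in edgeR (0.0508), with DESeq2 (0.0714) or with limma (0.135). CYP3A4 stayed under 3 CPM with overlapping groups, and its call (adjusted p = 0.0287) did not pass without 125 µM library 1 (0.129), 2 (0.0548) or 3 (0.0554) or with DESeq2 (0.111). With limma the log2 fold change of CYP3A4 was -0.50 (adjusted p = 0.635), against -1.43 with edgeR. ESRRG, the other oestrogen-related receptor among the members, had 1 read in all.

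Of the 5 coregulators, 1 fell at 125 µM against control (NRIP1), beside 19.9% of all genes that fell in that comparison, and the other 4 did not pass. NRIP1 (RIP140, chromosome 21, 16333556 to 16437321) is a corepressor of several receptors and of oxidative metabolism. It had 87.3, 90.2 and 88.1 CPM at 125 µM, against 104, 109 and 99.4 CPM at 2.5 µM and 132, 112 and 111 CPM in controls. The 3 groups did not overlap. Its log2 fold change at 125 µM was -0.42 ± 0.09 (adjusted p = 0.0019, edgeR), a fall by 25.4%. Intron reads were 5.03% of its reads at 125 µM, 11.03% at 2.5 µM and 13.9% in controls, and with exon reads alone the log2 fold change was -0.35 ± 0.09 (adjusted p = 0.00475). The share of intron reads over all nuclear genes was 4.91 to 5.50%, 4.93 to 7.74% and 6.14 to 7.24% in the same order.

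NCOR1, the scaffold of the HDAC3 corepressor complex, had 161 ± 7.57 CPM at 125 µM and 147 ± 1.52 at 2.5 µM, against 173 ± 7.95 in controls. At 2.5 µM its groups did not overlap, yet it did not pass on all gene reads (adjusted p = 0.0614, edgeR). The p160 coactivators recruit histone acetyltransferases. NCOA1 averaged 23.4 ± 1.14 CPM at 125 µM and 21.9 ± 0.62 at 2.5 µM, against 26.9 ± 1.99 in controls, and NCOA2 averaged 61.7 ± 1.97 and 61.9 ± 4.66, against 60.3 ± 3.58. NCOA3 averaged 119 ± 8.08 and 123 ± 9.62, against 137 ± 5.89 CPM. With edgeR on all gene reads none of these 3 passed in a comparison, and the adjusted p was 0.0773 for NCOA3 at 125 µM and 0.0772 for NCOA1 at 2.5 µM against control. At 125 µM NCOA3 passed as lower with exon reads alone (adjusted p = 0.0245) and NCOA1 with limma (0.0314). NCOA3 overlaps SULF2 on the other strand over 530 bases, and SULF2 rose at 125 µM (log2 fold change 1.21 ± 0.17, adjusted p = 9.08e-05, edgeR).

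The coregulators outside the member set moved in both directions. Of 17 coactivators, 5 rose and 6 fell at 125 µM against control (29.4% and 35.3%, beside 20.3% and 19.9% of all genes). At 2.5 µM 0 rose and 4 fell with edgeR and with DESeq2, beside 6.02% and 5.03% of all genes with edgeR. At an unadjusted p under 0.05 edgeR had 4 higher and 7 lower at 2.5 µM. PPARGC1A (PGC-1α), the coactivator of PPARs and ESRRA in fasting and mitochondrial growth, had 84.9, 83.7 and 83.7 CPM at 125 µM, against 60.3, 56.0 and 64.2 CPM at 2.5 µM and 50.5, 49.9 and 53.1 CPM in controls. No groups overlapped, and its log2 fold change at 125 µM was 0.72 ± 0.08 (adjusted p = 2.58e-05, edgeR). Its relative PPARGC1B rose by 1.41 ± 0.24 (adjusted p = 0.000421), at 5.98 CPM at 125 µM, against 2.32 CPM in controls. The histone demethylase KDM6A fell by 1.02 ± 0.13 on the log2 scale (adjusted p = 5.91e-05) and NCOA5 by 0.66 ± 0.11 (adjusted p = 0.000359). Of 12 corepressors, 2 rose and 4 fell at 125 µM (16.7% and 33.3%, beside 20.3% and 19.9% of all genes). PHB2 changed by 0.51 ± 0.09 (adjusted p = 0.00039, edgeR) and HDAC3 by -0.69 ± 0.15 (adjusted p = 0.00274). CTBP2 changed by -1.52 ± 0.41 (adjusted p = 0.00901) and LCOR by -0.61 ± 0.17 (adjusted p = 0.0112). Without control library 1 the last pair did not pass (0.109 for CTBP2 and 0.0736 for LCOR), nor with limma (0.191 and 0.0977), and CTBP2 did not pass without 125 µM library 2 (0.0766).

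The other 18 human nuclear receptors complete the family of 48. Of these, 11 were tested, and at 125 µM 2 rose, NR1I2 among them, and 4 fell (NR1H4, NR5A2, THRA and THRB), while at 2.5 µM 0 rose and 3 fell (NR1H4, NR5A2 and THRB) with edgeR, and 0 rose and 2 fell with DESeq2; at an unadjusted p under 0.05 edgeR had 1 higher and 4 lower. The shares called at 125 µM were 18.2% higher and 36.4% lower, beside 20.3% and 19.9% of all genes. At 2.5 µM 6.02% of all genes rose and 5.03% fell with edgeR. The median log2 fold change at 125 µM was -0.21 over these 11, beside -0.20 over the 27 members. NR1I2 (PXR), the receptor for drugs and other foreign compounds, had 29.5, 28.6 and 25.0 CPM at 125 µM, against 14.3, 13.9 and 18.2 CPM at 2.5 µM and 8.70, 14.0 and 9.49 CPM in controls (log2 fold change at 125 µM 1.41 ± 0.17, adjusted p = 3.2e-05, edgeR). NR1H4 (FXR), the bile acid receptor, had 61.5, 48.9 and 54.0 CPM at 125 µM, against 105, 108 and 65.8 CPM at 2.5 µM and 212, 116 and 163 CPM in controls (-1.59 ± 0.20, adjusted p = 4.03e-05). The thyroid hormone receptor THRB changed by -0.86 ± 0.11 (adjusted p = 4.09e-05). NR5A2 (LRH-1) had 0.728, 0.830 and 0.734 CPM at 125 µM, against 1.72, 2.23 and 1.21 CPM at 2.5 µM and 11.6, 1.39 and 9.49 CPM in controls, with control library 2 far below the other controls. Its log2 fold change of -3.30 ± 0.58 (adjusted p = 0.000514) became -2.69 without control library 1 and -3.75 without control library 2.

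**Figure D4:**
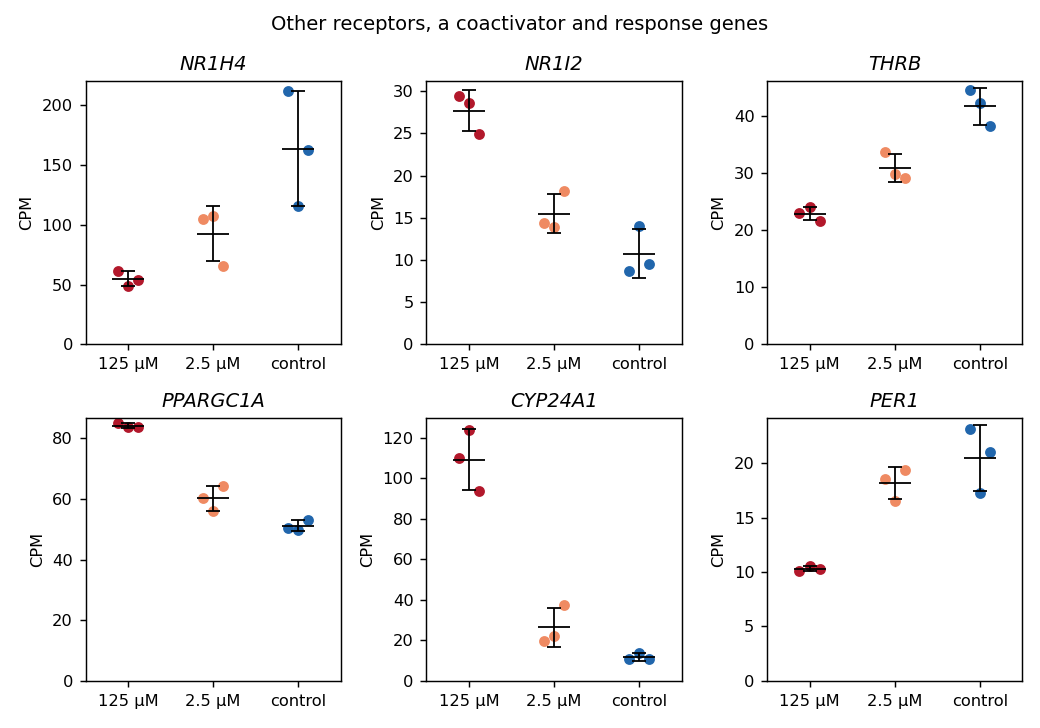
CPM of the receptors NR1H4, NR1I2 and THRB, the coactivator PPARGC1A, and the response genes CYP24A1 and PER1 in each library (points) with mean and SD of 3 libraries (bars), in the order 125 µM, 2.5 µM and control; each vertical axis starts at 0. NR1I2, PPARGC1A and CYP24A1 are highest and NR1H4, THRB and PER1 lowest at 125 µM, and no 125 µM library overlaps a control.

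Genes that PPARs and LXRs are known to activate were set beside the receptors. Of 14 tested PPAR target genes, 6 rose, among them PLIN2, VNN1, CPT1A, ACADM and ANGPTL4, and 3 fell (CREB3L3, ACSL1 and ETFDH) at 125 µM, and their median log2 fold change was 0.41. At 2.5 µM 1 rose (PLIN2) and 2 fell (CREB3L3 and ACSL1), with a median of 0.02. The shares called at 125 µM were 42.9% higher and 21.4% lower, beside 20.3% and 19.9% of all genes. At 2.5 µM they were 7.14% and 14.3%, beside 6.02% and 5.03% of all genes. The lipid droplet coat protein PLIN2 had 1362, 1381 and 1392 CPM at 125 µM, against 772, 851 and 921 CPM at 2.5 µM and 625, 698 and 666 CPM in controls, with no overlap between groups. VNN1, which makes pantothenate, had 49.3, 76.7 and 54.0 CPM at 125 µM, against 12.1, 19.2 and 24.6 CPM at 2.5 µM and 4.72, 13.3 and 8.98 CPM in controls. CPT1A, which commits fatty acids to mitochondrial oxidation, had 97.3, 123 and 95.1 CPM at 125 µM, against 68.8, 49.6 and 75.5 CPM at 2.5 µM and 49.4, 59.4 and 52.3 CPM in controls. The liver transcription factor CREB3L3 had 25.5, 22.2 and 31.2 CPM at 125 µM and 25.3, 25.8 and 18.2 CPM at 2.5 µM, against 58.8, 43.9 and 48.0 CPM in controls. Its log2 fold change was -1.0 ± 0.15 at 125 µM (adjusted p = 0.00014, edgeR) and -1.07 ± 0.15 at 2.5 µM (adjusted p = 0.00488), so that like PPARG it was about as far from control at the lower concentration as at the higher.

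Of 9 tested LXR target genes, 2 rose and 1 fell at 125 µM, with a median log2 fold change of 0.14. These were 22.2% and 11.1%, beside 20.3% of all genes that rose and 19.9% that fell. SMPDL3A, a phosphodiesterase, had 31.6, 35.4 and 38.2 CPM at 125 µM, against 21.1, 21.6 and 27.9 CPM at 2.5 µM and 10.9, 17.4 and 17.4 CPM in controls (log2 fold change at 125 µM 1.24 ± 0.17, adjusted p = 8.07e-05, edgeR). LPCAT3, which puts polyunsaturated chains into phospholipids, rose by 0.37 ± 0.11 (adjusted p = 0.0162; 0.0954 without 125 µM library 1, 0.0856 without control library 1, 0.0503 with DESeq2 and 0.0805 with limma). The desaturase SCD fell by 0.26 ± 0.09 on the log2 scale (adjusted p = 0.0383), and it did not pass without any one of 125 µM libraries 1 to 3 (0.0982, 0.114 and 0.0803) or of control libraries 1 and 3 (0.155 and 0.137). At 2.5 µM 1 LXR target rose (SMPDL3A), beside 6.02% of all genes.

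Calls at 2.5 µM rested on few libraries and depended on the method. Of the 17 genes named by rule from these lists that passed at 2.5 µM, 15 did not pass without control library 1. CREB3L3 and SLC30A10 were the 2 that passed without it. Without 2.5 µM library 3, 12 of the 17 did not pass, and with only the 2 groups fitted 7 did not. With limma on quantile-normalised values 0 of the 17 passed (adjusted p = 0.0524 to 0.173). CREB3L3 (0.0559) and SLC30A10 (0.0722) were also lost with limma.

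Some member reads could belong to a neighbour. In the annotation 12 members overlap another tested gene: NR1D1, NR1D2, NR1H2, NR1H3, RXRB, NR2C2, NR2F1, NR2F2, ESRRA, ESR2, NCOR1 and NCOA3. The library kit keeps strand, but whether strand was used in counting is not given in the sources used here, so for these members the share of reads that belongs to the neighbour is unknown. RORA, NRIP1, PPARD, PPARG, NR4A1, NR2C1, RXRA and HNF4G, which were called at 125 µM, overlap no other tested gene. No member had reads that mapped to several places, as the files count them.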

How the data were processed

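Polyadenylated RNA from 9 HepG2 cultures was made into stranded libraries and sequenced as paired reads of 50 bp, per the labels' protocols. The deposited whole-number counts of reads per gene (total, unique, exon and intron) came, per the series' design text, from CLC Genomics Workbench (version not given in the sources used here) with hg19 as genome. Per the file headers, RPKM values are exon reads over exon length and depth. The authors also deposited a normalised signal, which the series' design text describes as quantile-normalised across libraries.

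Total reads per gene were filtered with filterByExpr (12901 genes kept), scaled by TMM and tested in R 4.3.3 with the quasi-likelihood test of edgeR 4.0.16 on all 9 libraries in 3 groups, with two-sided contrasts and Benjamini-Hochberg adjustment over all 12901 genes at 0.05. The common biological coefficient of variation was 10.0%. Fold changes (log2) and CPM come from that fit. Their SE was derived from the test, as the absolute log2 fold change over the square root of its F statistic, and is approximate. Alternatives used DESeq2 1.42.0, limma 3.58.1 on log2 of the deposited normalised signal plus 1, other scalings, filters and read classes, a replicate block and leaving out each library. Same-numbered libraries correlated between -0.24 and 0.18 in their deviations from group means. For 125 µM and control these values were 0.10, 0.18 and 0.06, each above the highest value with another number (-0.04, -0.04 and 0.04). In the other comparisons the libraries numbered 2 gave -0.24 and -0.19. The labels state separate seeding, so the numbers were not taken as pairs in the main fit.

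Members and gene lists were chosen with earlier results of these data known. Members past 0.05 in any comparison get every library's value, and up to 4 genes of smallest adjusted p at 125 µM are named per list; others were named after their values were seen. CIART and PECAM1 were not analysed here. Some genes that meet the rule are counted but not reported by name. File starts count from 0, so 1 was added: 68.8% of 33594 features matched by name to GENCODE on GRCh37 then had the same start, against 1.15% without. These edgeR steps had been tested on simulated counts. The floor of 3 reads covers counting error only. Promoters are RefSeq's on GRCh38.p14, in a table that holds 30 of the 35 symbols.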

Additional observations from a re-analysis of the deposited data

How the results depend on the processing

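No member that passed in a comparison changed direction there in any alternative. Of 480 values of these member calls under alternatives, 421 passed the threshold as before and 59 kept the direction and did not pass. Over all 1574 values, which add the calls against control of list genes named by rule, the counts were 1397 and 177. Member values that did not pass in the main fit are not in these counts. With limma on quantile-normalised values 865 genes were called at 125 µM against 2.5 µM and 0 at 2.5 µM against control, and the members called higher were 1 and 0. At 2.5 µM limma had 3305 genes and 1 higher member (PPARG) at an unadjusted p under 0.05, and DESeq2 called 1244 genes and 1 higher member. Fitting only the 2 groups compared left 731 genes at 2.5 µM against control. At 2.5 µM against control, 1 member was lower with no filter on low counts (NR4A1), 1 with exon reads (NCOR1) and 1 without control library 2 (NR4A1). The cause of these differences was not tested.

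Leaving out 1 library at a time gave 3557 to 5351 genes called at 125 µM against control, 213 (without control library 1) to 2050 at 2.5 µM against control and 799 to 2230 at 125 µM against 2.5 µM. The members called higher were then 3 to 4, 0 to 1 and 1 to 3 in these comparisons, and the members called lower 8 to 12, 0 to 1 and 2 to 7.

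With the replicate block, 5066, 1274 and 1771 genes were called in the same order, with 4 members higher and 10 lower at 125 µM against control (RXRA was lost and RXRB gained), 1 higher and 0 lower at 2.5 µM, and 3 higher and 5 lower at 125 µM against 2.5 µM (NR2F2 was lost). The replicate numbers were not shown to pair the libraries. Depth limits receptors near the floor of 1.21 CPM in the shallowest library, such as RARG.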
